A study of Mus musculus with 6 samples.

Results

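Genes that make, break down and sense prostaglandins were examined in cultured dermal cells of neonatal C57BL/6 mice. The list held 10 genes, of which 9 were measured among the 19938 genes tested, each by 1 probe set: the synthesis genes Ptgs2, Ptges, Ptgis and Ptgds, the breakdown gene Hpgd, and the receptor genes Ptger2, Ptger3, Ptger4 and Ptgfr. Ptgs1 was not analysed here. A probe set was assigned to a member by its gene symbol.

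The labels name 3 arrays FR and 3 arrays DMSO. Per the series design, FR cells were kept for 2 days in medium with 20 µM forskolin and 20 µM RepSox together, and the other cells were kept without them. DMSO is the usual solvent of such compounds. Forskolin switches on adenylyl cyclase, the enzyme that makes cyclic AMP. RepSox blocks the kinase of the type I receptor for TGF-β. Because the compounds were given together, their separate effects cannot be told apart. The labels name neonatal skin as the source and no sorting step, so the cells may be mixed. Fibroblast markers were bright, with Pdgfra at 11.13 ± 0.051 in FR and 11.16 ± 0.024 in DMSO and Vim at 11.52 ± 0.018 in FR and 12.18 ± 0.025 in DMSO (log2 RMA value, mean ± SD, n = 3 each).

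Prostaglandins are short-lived lipid signals made from arachidonic acid, which phospholipases free from membranes. The cyclooxygenases convert it to an unstable intermediate, and terminal synthases turn that into prostaglandin E, D or F or into prostacyclin. The products act on G protein-coupled receptors at the cell surface, and uptake into the cell followed by oxidation ends the signal. In skin, fibroblasts and keratinocytes both make prostaglandin E, which takes part in inflammation and repair.

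Promoter windows are shown for 3 members because the data bear on them: Ptgs2, the cyclooxygenase gene that inflammatory signals and cyclic AMP are known to induce, Ptgfr, the member with the largest rise, and Ptger4, the member with the largest fall. Each runs 5′ to 3′ from 250 bases before the RefSeq start (build GRCm38.p6) to 30 bases after it. Capitals mark matches to the motifs named below.
Ptgs2 (chr1:150099781-150100060, plus strand): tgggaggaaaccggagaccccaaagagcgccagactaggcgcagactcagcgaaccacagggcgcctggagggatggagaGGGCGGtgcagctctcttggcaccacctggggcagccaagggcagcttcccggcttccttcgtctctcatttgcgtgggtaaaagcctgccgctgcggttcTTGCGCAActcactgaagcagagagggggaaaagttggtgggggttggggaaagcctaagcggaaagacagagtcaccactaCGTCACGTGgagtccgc
Ptgfr (chr3:151837499-151837778, minus strand): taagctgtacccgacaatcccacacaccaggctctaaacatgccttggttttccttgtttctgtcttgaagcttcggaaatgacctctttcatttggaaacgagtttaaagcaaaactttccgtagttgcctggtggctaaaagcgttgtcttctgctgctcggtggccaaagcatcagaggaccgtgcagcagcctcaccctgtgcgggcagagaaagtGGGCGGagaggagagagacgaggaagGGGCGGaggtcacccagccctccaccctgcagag
Ptger4 (chr15:5244158-5244437, minus strand): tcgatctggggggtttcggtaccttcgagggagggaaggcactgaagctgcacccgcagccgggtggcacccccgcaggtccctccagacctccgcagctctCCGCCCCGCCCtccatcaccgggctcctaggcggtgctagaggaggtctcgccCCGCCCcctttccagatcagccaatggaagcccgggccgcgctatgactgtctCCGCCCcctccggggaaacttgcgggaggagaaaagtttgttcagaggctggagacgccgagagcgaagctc

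The motifs were searched on both strands. They were the full cyclic AMP response element TGACGTCA, its short form CGTCA, the C/EBP palindrome TTGCGCAA, the E-box CACGTG, the GC box GGGCGG and the TATA box TATAAA. A RefSeq window was found for 8 of the 9 measured members, all except Ptgis. The full cyclic AMP response element was in 0 of the 8 windows, and 1.74% of all 32851 promoter windows of that length hold it. The short form was in 1, that of Ptgs2, where it starts at base 14 after the RefSeq start and overlaps the E-box, which starts at base 17. Of all windows, 19.9% hold the short form and 6.79% the E-box. The Ptgs2 window was also the one member window with the C/EBP palindrome, at base -69 counted from the start, a word found in 0.18% of all windows. GC boxes were in 6 of the 8 windows and in 34.7% of all. Those 6 windows were 53.9% to 66.8% G and C, against a median of 52.5% over all windows. The windows without a GC box were at 57.5% (Ptgds) and 37.9% (Ptger2). The part of base composition in this count was not tested. The TATA box letters were in the Hpgd window, at base 5 after the RefSeq start and not before it, against 13.1% of all. A match describes letters in a window and shows no binding.

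**Figure D1:**
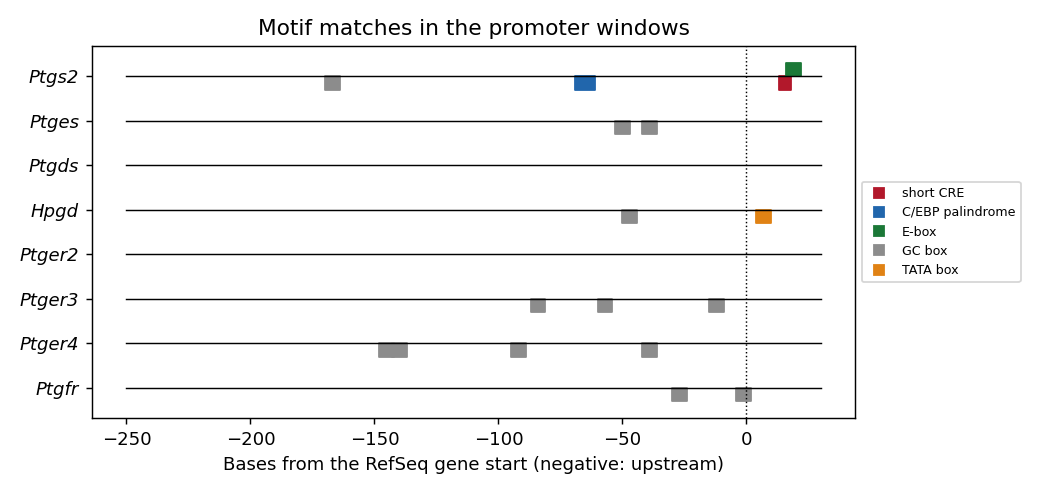
Motif matches in the promoter windows of the 8 members with a RefSeq window, with the distance in bases from the RefSeq gene start on the x axis and coloured boxes for matches on either strand. The short cyclic AMP response element, the C/EBP palindrome and the E-box lie in the Ptgs2 window, and GC boxes lie in 6 windows.

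Across all 19938 genes, 5559 (27.9%) differed between FR and DMSO at adjusted p under 0.05 by limma, 2671 higher (13.4%) and 2888 lower (14.5%). With arrays centred on their medians the split was 1880 higher and 3447 lower. Among the 9 members, 6 were higher and 2 lower in FR, and those 8 also had groups that did not overlap, as 43.9% of all genes did. The median change of the 9 was 0.60 on the log2 scale, against 0.053 over all genes. The members were chosen with earlier results of these data known, so these figures describe the list and test nothing. A change of at least 2-fold that passed was found for 3 members, Ptgfr, Ptger3 and Ptger4, and for 3.13% of all genes. The split of 6 higher and 2 lower was the same with arrays centred on their medians. Each change given here is FR minus DMSO in log2 RMA units, with p adjusted over all genes. In these bulk samples, more cells of a type and more RNA per cell cannot be told apart, and keratinocyte and adipocyte markers were higher in FR as well, with the values given after those of the pathway.

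**Figure D2:**
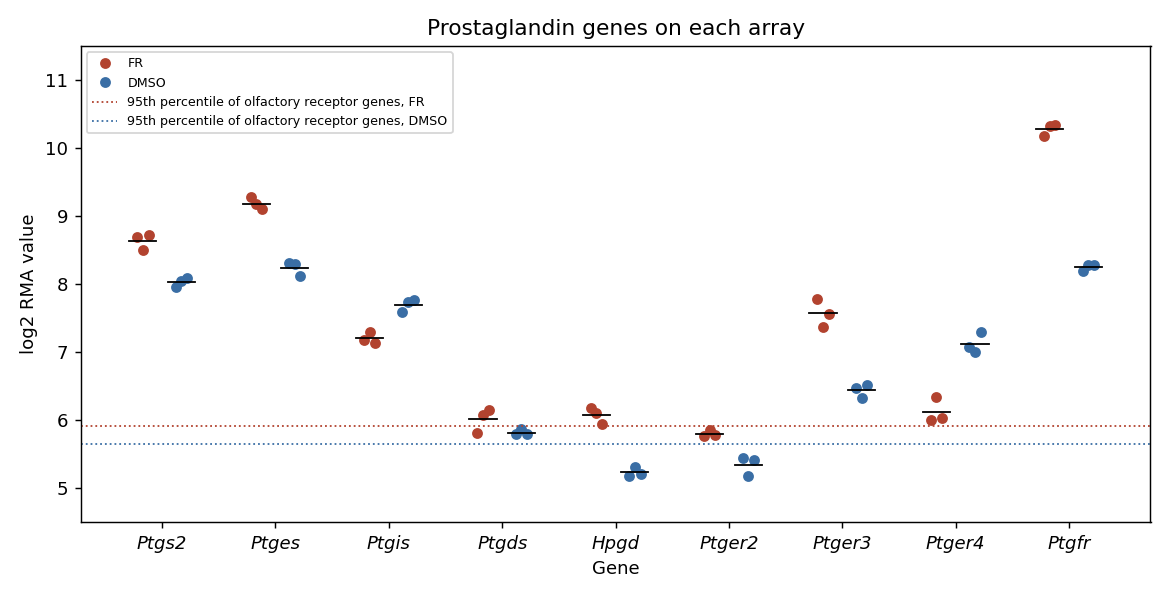
The log2 RMA value (y axis) of each member on every array, FR left of DMSO, with a black line at the mean of 3 arrays and dotted lines at the 95th percentile of the olfactory receptor genes. Groups stand apart for every member except Ptgds, and Ptger2 lies under the dotted line of its group.

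The genes of both inducible steps towards prostaglandin E were higher in FR. Ptgs2 (probe set 10350516) encodes cyclooxygenase-2, the inducible enzyme that commits arachidonic acid to prostaglandins. Its values were 8.69, 8.50 and 8.71 in FR, against 7.96, 8.05 and 8.09 in DMSO. Every FR array lay above every DMSO array, and the rise was 1.52-fold (log2 change 0.60, SE 0.090, adjusted p = 0.000566, limma). Ptges (probe set 10481518) encodes the microsomal prostaglandin E synthase that is often induced along with cyclooxygenase-2. It stood at 9.27, 9.17 and 9.10 in FR, against 8.31, 8.29 and 8.11 in DMSO. The groups were again apart, and the rise was 1.93-fold (log2 change 0.94, SE 0.091, adjusted p = 2.43e-05).

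The prostacyclin and prostaglandin D synthase genes did not follow. Ptgis (probe set 10489878), which encodes prostacyclin synthase, had 7.18, 7.30 and 7.14 in FR, against 7.59, 7.74 and 7.77 in DMSO. All 3 FR values were lower, and the gene was 1.41-fold lower (log2 change -0.49, SE 0.089, adjusted p = 0.0019). Ptgds (probe set 10480734) encodes the lipocalin-type prostaglandin D synthase. Its values were 5.82, 6.07 and 6.15 in FR, against 5.79, 5.86 and 5.80 in DMSO. The groups overlapped through FR replicate 1, and the change did not pass (log2 change 0.20, 95% confidence interval -0.024 to 0.42, adjusted p = 0.167). Without that array it was 0.30 (adjusted p = 0.0323), so that 1 array set the side of the threshold on which Ptgds fell. The 95% intervals of the synthesis genes that passed were 0.40 to 0.80 for Ptgs2 and 0.74 to 1.15 for Ptges, both above 0, and -0.69 to -0.30 for Ptgis.

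Hpgd (probe set 10571840) encodes the dehydrogenase that begins the inactivation of prostaglandins inside the cell. It had 6.18, 6.11 and 5.94 in FR, against 5.19, 5.31 and 5.21 in DMSO. No value of one group reached the other, and the rise was 1.79-fold (log2 change 0.84, SE 0.091, adjusted p = 5.4e-05). Olfactory receptor genes, most of which are silent outside the nose, give a guide to the signal of silent genes: the 95th percentile of 1027 of them was 5.92 in FR and 5.65 in DMSO, and their median change was 0.14. Hpgd averaged 6.08 in FR, above that level, and 5.24 in DMSO, below it, so its fold depends on signal near the background.

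**Figure D3:**
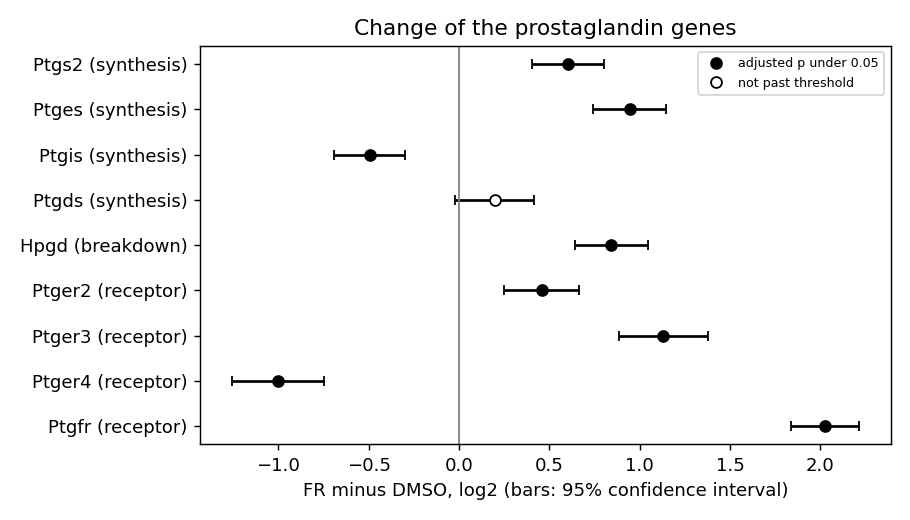
Change of each member (x axis, FR minus DMSO on the log2 scale) with its 95% confidence interval from limma, with filled points for adjusted p under 0.05. Ptgis and Ptger4 lie below 0, the interval of Ptgds includes 0, and Ptgfr, at 2.03, stands farthest from it.

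The receptor genes moved in different directions. Ptgfr (probe set 10502805) encodes the FP receptor for prostaglandin F, which couples mainly to Gq and calcium. Its values were 10.17, 10.32 and 10.34 in FR, against 8.19, 8.29 and 8.27 in DMSO. The groups lay far apart for their spread, with SDs of 0.094 in FR and 0.050 in DMSO, and the rise was 4.07-fold (log2 change 2.03, SE 0.085, adjusted p = 8.31e-08). By absolute change Ptgfr ranked 75 of all 19938 genes.

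The receptors for prostaglandin E differed among themselves. Ptger3 (probe set 10497079) encodes EP3, which couples mainly to Gi and so lowers cyclic AMP. It had 7.78, 7.37 and 7.56 in FR, against 6.48, 6.33 and 6.51 in DMSO. All FR values were higher, with the widest FR spread among the members (SD 0.21), and the rise was 2.19-fold (log2 change 1.13, SE 0.11, adjusted p = 2.86e-05). Ptger4 (probe set 10427461) encodes EP4, which couples mainly to Gs and so raises cyclic AMP. Its values were 6.00, 6.34 and 6.03 in FR, against 7.07, 6.997 and 7.30 in DMSO. All FR values were lower, and Ptger4 was 2-fold lower (log2 change -1.002, SE 0.12, adjusted p = 8.91e-05).

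Ptger2 (probe set 10414271) encodes EP2, the other Gs-coupled receptor for prostaglandin E. It stood at 5.76, 5.86 and 5.79 in FR, against 5.44, 5.18 and 5.41 in DMSO. The groups did not overlap and the rise passed (1.37-fold, log2 change 0.46, SE 0.094, adjusted p = 0.00432), but the means, 5.80 in FR and 5.34 in DMSO, both lay under the 95th percentile of the olfactory receptor genes of that group. The 95% intervals were 0.25 to 0.67 for Ptger2, -1.26 to -0.75 for Ptger4, 0.88 to 1.38 for Ptger3 and 1.84 to 2.21 for Ptgfr. The interval of Ptger2 rests on signal within the background range, where olfactory receptor genes were higher in FR too.

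**Figure D4:**
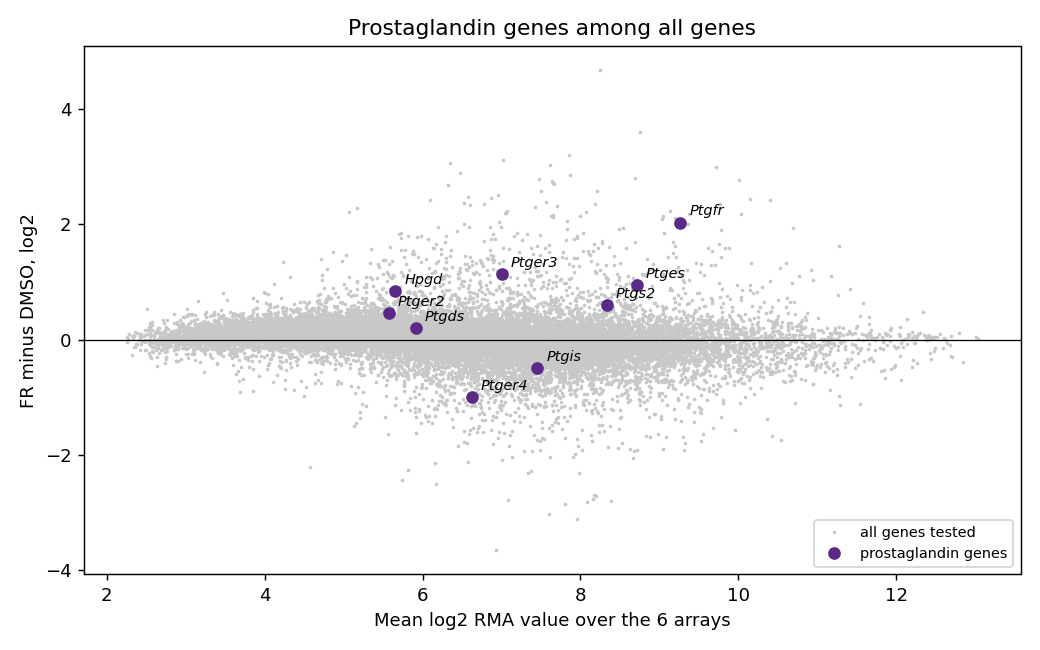
Change (y axis, FR minus DMSO on the log2 scale) against the mean log2 RMA value over the 6 arrays (x axis) for all 19938 genes in grey and the 9 members in purple. Ptgfr lies at the upper edge of the cloud for its level, while Ptgds lies within its dense centre.

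Of the 34 further gene symbols listed for prostanoid release, synthesis, sensing and clearance, 31 were measured. Of these, 7 rose and 3 fell, so that 32.3% passed beside 27.9% of all genes. Their median change was 0.098, against 0.053 over all genes. The list as a whole therefore lay near the background, and the values below belong to single genes.

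Among the release genes, 3 of 11 rose and 0 fell, so that 27.3% passed, near the 27.9% of all genes. Pla2g4a, the cytosolic phospholipase that frees arachidonic acid, had 9.44, 9.13 and 9.20 in FR, against 8.59, 8.72 and 8.58 in DMSO. It rose 1.54-fold (log2 change 0.63, SE 0.099, adjusted p = 0.000813). Mgll, a lipase that can supply arachidonic acid from an endocannabinoid, had 6.93, 6.86 and 6.62 in FR, against 5.47, 6.04 and 5.61 in DMSO. It rose 2.13-fold (log2 change 1.09, SE 0.14, adjusted p = 0.000211), with the DMSO arrays spread widely (SD 0.30). The DMSO mean of Mgll, 5.71, lay just above the olfactory receptor level of that group, 5.65. The secreted phospholipase gene Pla2g2d was the third (log2 change 0.34, adjusted p = 0.0286), with a DMSO mean of 5.61, under the level of 5.65 given for olfactory receptor genes. Pla2g2d no longer passed when DMSO replicate 2 or 3 was left out (adjusted p = 0.119 and 0.0594) or when FR replicate 2 or 3 was (0.0899 and 0.0588). Its call was also lost with quantile normalization (0.0657), centring on array medians (0.0549) and cyclic loess (0.073). The same held with ordinary variance (0.115) and with the replicate block (0.0584). The 8 others changed by -0.09 to 0.20 and did not pass. Of the 6 other synthase genes, 0 passed, with changes from -0.16 to 0.27. They include Ptges2 and Ptges3, which encode the other prostaglandin E synthases, at -0.041 and 0.24 (adjusted p = 0.738 and 0.0522). Ptges3 did pass with quantile normalization (adjusted p = 0.0295), cyclic loess (0.0203), the dim-gene filter (0.0181) and a variance trend (0.00331), and its change was 0.030 when its 3 probe sets were averaged.

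Among the other receptor genes and their partner, 1 of 6 rose and 2 fell, so that 50% passed beside 27.9% of all genes. Ptgfrn encodes a membrane protein named as a negative regulator of the FP receptor. Its values were 7.27, 7.42 and 6.95 in FR, against 8.25, 8.47 and 8.38 in DMSO. It was 2.23-fold lower (log2 change -1.15, SE 0.12, adjusted p = 4.62e-05), while Ptgfr itself was 4.07-fold higher. Ptgir, the gene of the Gs-coupled prostacyclin receptor, had 7.97, 7.94 and 7.96 in FR, against 7.23, 7.56 and 7.29 in DMSO. It rose 1.51-fold (log2 change 0.59, SE 0.099, adjusted p = 0.00115), whereas Ptgis, the synthase gene of its ligand, fell. Tbxa2r, the thromboxane receptor gene, had 6.36, 6.56 and 6.44 in FR, against 6.78, 6.87 and 6.93 in DMSO, and was 1.32-fold lower (log2 change -0.40, adjusted p = 0.00662). Ptger1, the remaining EP receptor gene, did not pass (log2 change -0.12, adjusted p = 0.396), nor did the prostaglandin D receptor genes Ptgdr (0.22, adjusted p = 0.126) and Ptgdr2 (0.27, adjusted p = 0.087). Ptgdr passed without FR replicate 3 (adjusted p = 0.0255), and Ptgdr2 passed without FR replicate 1 (0.0435) and with the replicate block (0.0494).

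Among transport and breakdown genes, 3 of 8 rose and 1 fell, so that 50% passed beside 27.9% of all genes. Slco2a1 encodes the transporter that carries prostaglandins into cells, where Hpgd acts on them. It had 10.23, 10.28 and 10.25 in FR, against 8.05, 8.25 and 8.13 in DMSO. The rise was 4.31-fold (log2 change 2.11, SE 0.085, adjusted p = 7.15e-08). Akr1c18, which encodes an aldo-keto reductase of steroid and prostaglandin metabolism, had 5.28, 5.25 and 5.07 in FR, against 4.15, 4.22 and 4.55 in DMSO. It rose by 0.89 (adjusted p = 0.000176), with both means under the olfactory receptor level of their group. Cbr3, a carbonyl reductase gene, rose 1.46-fold (log2 change 0.54, adjusted p = 0.000633). Ptgr1, which encodes a reductase of prostaglandin and leukotriene metabolites, was 1.28-fold lower (log2 change -0.36, adjusted p = 0.0165). Ptgr1 did not pass when DMSO replicate 1 was left out (adjusted p = 0.0594) or with ordinary variance (adjusted p = 0.0751). Pla2g2d, Ptgir, Cbr3, the regulator genes Tnfrsf1a, Cebpd and Cebpb given below, and the genes that did not pass are named outside the rule for named genes, after their values were seen.

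**Figure D5:**
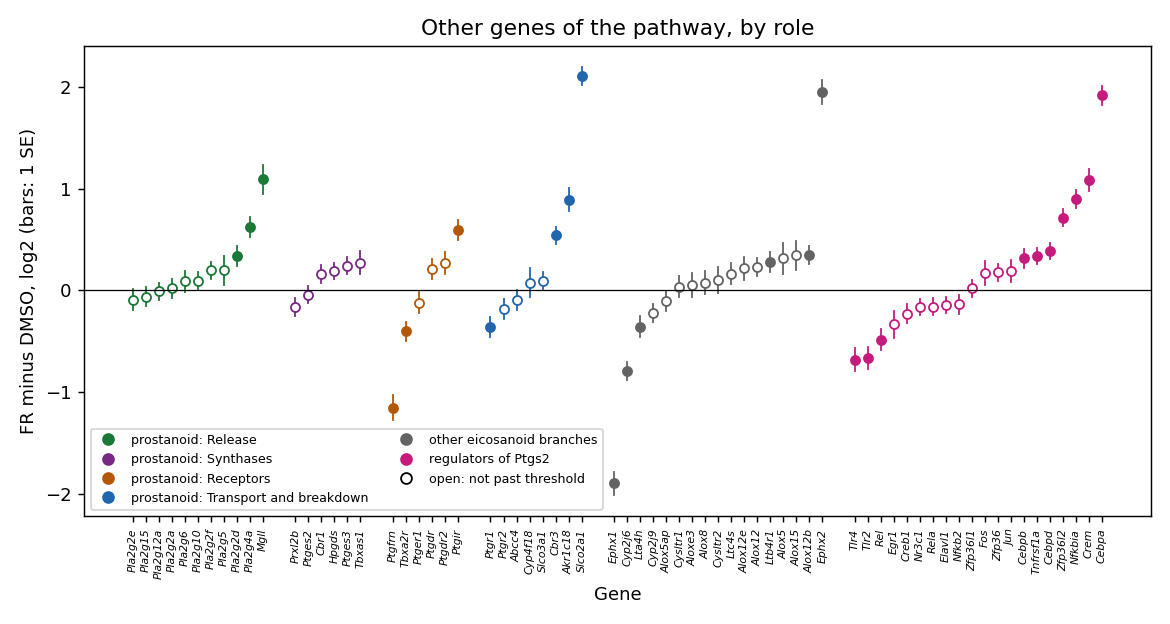
Change (y axis, FR minus DMSO on the log2 scale, bars 1 SE) of the other measured genes of the pathway, of other eicosanoid branches and of regulators of Ptgs2, each gene on the x axis and coloured by role, with open points where adjusted p was not under 0.05. Slco2a1, Ephx2 and Cebpa lie highest and Ephx1 and Ptgfrn lowest.

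Genes known to act on Ptgs2 expression were listed as well, and 20 of 23 were measured. Of these, 7 rose and 3 fell, beside 13.4% and 14.5% of all genes, and the median change was 0.095, against 0.053 over all genes. Cebpa, a member of the C/EBP factor family, had 9.50, 9.49 and 9.34 in FR, against 7.40, 7.63 and 7.54 in DMSO, and rose 3.78-fold (log2 change 1.92, SE 0.093, adjusted p = 1.76e-07). Crem, a cyclic AMP-responsive factor gene, had 7.85, 7.46 and 7.64 in FR, against 6.66, 6.48 and 6.56 in DMSO (log2 change 1.08, SE 0.11, adjusted p = 3.03e-05). Nfkbia, which encodes an inhibitor of NF-κB, rose by 0.89 (adjusted p = 2.96e-05) and Zfp36l2, an RNA-decay factor gene, by 0.72 (adjusted p = 7.76e-05). The receptor genes Tlr4 and Tlr2, whose ligands are known to induce Ptgs2, fell by 0.68 (adjusted p = 0.00113) and 0.66 (adjusted p = 0.000999). The receptor gene Tnfrsf1a rose by 0.34 (adjusted p = 0.0105). Cebpd and Cebpb, also of the C/EBP family, rose by 0.39 (adjusted p = 0.00388) and 0.31 (adjusted p = 0.0348). The NF-κB gene Rel fell by 0.48 (adjusted p = 0.006), but did not pass with ordinary variance (adjusted p = 0.0691). Creb1, the factor that binds the cyclic AMP response element, changed by -0.23 and did not pass (adjusted p = 0.0949), but passed with the dim-gene filter (adjusted p = 0.0406), with a variance trend (0.0447) and without FR replicate 1 (0.0459).

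Likeness of profile was measured for the 3 members with at least 2-fold changes as the root mean square difference of values over the 6 arrays, each gene centred on its own mean. The nearest genes to Ptgfr were Parm1 (0.056 log2 units), S1pr1 (0.068) and Slco2a1 (0.072). Those nearest to Ptger3 were Crem (0.046), Scara3 (0.080) and Pdk3 (0.082). Those nearest to Ptger4 were Arhgef10 (0.067), Prima1 (0.084) and Sfxn3 (0.084). With 3 arrays per group, such likeness mostly measures an equal difference between FR and DMSO.

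Markers of some other cell types moved with the treatment. Of 10 keratinocyte markers 8 rose and 0 fell, and their summed level on the linear scale was 2902 to 2980 in FR and 997 to 1088 in DMSO. Krt5 averaged 10.46 ± 0.079 in FR and 8.29 ± 0.16 in DMSO (log2 RMA value, SD, n = 3 each), and Krt14 averaged 9.01 ± 0.097 in FR and 7.43 ± 0.061 in DMSO. All 6 adipocyte markers rose, with a summed level of 7206 to 7914 in FR and 2583 to 2861 in DMSO, Adipoq averaging 7.88 ± 0.12 in FR and 4.82 ± 0.14 in DMSO and Fabp4 11.36 ± 0.030 in FR and 8.92 ± 0.10 in DMSO. Of 8 fibroblast markers 2 rose and 5 fell, with 17843 to 18069 in FR and 21684 to 21970 in DMSO. Of 6 pericyte markers 2 rose and 1 fell, with a summed level of 723 to 785.4 in FR and 538 to 560.1 in DMSO. Of the 8 mast cell, 8 macrophage, 8 endothelial and 6 melanocyte markers 2 of each list rose and 0 fell. Of those that rose, Kit, Hdc, Fcer1g, Emcn, Tek and Tyrp1 had both group means under the olfactory receptor level of their group. Cd14 and Pmel had both means above it. These genes are named after their values were seen. The DMSO mean of Adipoq, 4.82, also lay under the level of its group. Across all genes 13.4% were higher and 14.5% lower. The 5 T cell markers measured did not pass. RMA values have no true 0, so no marker could be called absent. The part of these shifts in the changes of the prostaglandin genes was not tested.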

How the data were processed

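RNA of 6 samples was hybridised to one-colour Affymetrix arrays. The authors deposited 1 log2 value per probe set and array, made by RMA in the oligo package per the submitters' processing notes. Their versions were not stated in the labels. No further normalization was applied. The number of arrays limits the precision. Of 35556 probe sets, 21789 had 1 gene symbol in the platform annotation, and the brightest of each gene was kept, giving 19938 genes. FR was compared with DMSO by limma 3.58.1 under R 4.3.3 (lmFit, then eBayes, with group as the only term, two-sided, Benjamini-Hochberg adjustment over all genes, threshold 0.05), with no filter on dim genes, and the fit was tested on simulated data. Nothing in the labels tells whether replicates were separate cultures or animals, so p-values cover only the spread between these samples, and that spread may be technical. Arrays were grouped by title, and 0 of 15 array pairs were identical.

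The members, the gene lists and the rule for named genes were chosen with earlier results of these data known. The rule takes all members, up to 4 passing genes per direction of each list with the largest change, and the 3 nearest profiles of each member changed at least 2-fold. Promoter windows and symbols are from RefSeq, GRCm38.p6. The build of the array is not given in the sources used here. Alternatives are normalization, a dim-gene filter, probe set handling, variance models, weighting of arrays, a test for changes beyond 0.5 on the log2 scale, a replicate block and the omission of single arrays.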

Additional observations from a re-analysis of the deposited data

How the results depend on the processing

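The changes of Ptges, Hpgd, Ptger3, Ptger4 and Ptgfr passed under every alternative run for them, 18 for each except 17 for Hpgd, which the dim-gene filter removed along with Ptgds and Ptger2. Ptgs2, Ptgis and Ptger2, with changes of 0.60, -0.49 and 0.46, lost the call in the test against a log2 change of 0.5, which asks for more than 0.5, and in no other alternative run. Ptgds gained it without FR replicate 1. Among the members and the other genes for which the alternatives were run, 0 changed direction past the threshold. They were not run for Tnfrsf1a, Cebpd and Cebpb, for the cell type markers or for most of the nearest profiles. In the test against 0.5, 842 genes passed in all, 5 members, 3 other prostanoid genes, 2 genes of other eicosanoid branches and 3 regulators of Ptgs2. With ordinary variance the counts were 3364 genes in all and 3 in other eicosanoid branches. Leaving out each array gave 4033 to 5914 genes in all, 8 to 9 members, 9 to 12 other prostanoid genes, 3 to 7 in other eicosanoid branches and 9 to 11 regulators. The other eicosanoid count of 3 was reached without DMSO replicate 3 and without FR replicate 2. The cause of these differences was not tested. The labels do not say whether same-numbered arrays were paired. Deviations of same-numbered arrays correlated at -0.073, 0.047 and -0.034, and these 3 values alone cannot exclude a pairing. With the replicate block 4977 genes and the same number of members, 8, passed. Arrays give no depth. Signal near the background limits Ptger2, Hpgd, Akr1c18, Pla2g2d, Ptgdr, Ephx2, Alox12b and Alox5. Among the named markers it limits Adipoq, Kit, Hdc, Fcer1g, Emcn, Tek and Tyrp1. Each had at least 1 group mean under the olfactory receptor level.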

Other observations

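Arachidonic acid also feeds lipoxygenases, which make leukotrienes and related lipids, and cytochrome P450 epoxygenases, whose products epoxide hydrolases break down. Of 19 genes listed for these branches 17 were measured, and 3 rose and 3 fell, which is 35.3% beside 27.9% of all genes, with a median change of 0.099. The largest changes were those of the epoxide hydrolase genes, and they ran in opposite directions. Ephx2, which encodes the soluble enzyme, had 7.73, 7.61 and 7.36 in FR, against 5.45, 5.58 and 5.81 in DMSO. The log2 change was 1.95 (SE 0.12, adjusted p = 9.48e-07, limma), and its DMSO mean of 5.61 lay under the olfactory receptor level of that group, 5.65, so no fold is given. Ephx1, which encodes the microsomal enzyme, had 7.88, 7.72 and 7.42 in FR, against 9.58, 9.54 and 9.59 in DMSO. It was 3.72-fold lower (log2 change -1.90, SE 0.11, adjusted p = 6.85e-07). The epoxygenase gene Cyp2j6 was 1.73-fold lower (log2 change -0.79, adjusted p = 7.15e-05).

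The 3 other genes of these branches that passed did so narrowly. The skin lipoxygenase gene Alox12b rose by 0.35 (adjusted p = 0.0159), with means of 5.70 in FR and 5.35 in DMSO that both lay under the olfactory receptor level, and the leukotriene receptor gene Ltb4r1 by 0.28 (adjusted p = 0.0472), and Lta4h, the hydrolase gene that makes leukotriene B4, fell by 0.36 (adjusted p = 0.0257). Leaving out arrays ended each of these calls. Adjusted p for Alox12b was 0.0683 without DMSO replicate 2, 0.0503 without DMSO replicate 3 and 0.0511 without FR replicate 2. That of Lta4h was 0.0989 without DMSO replicate 3, 0.0805 without FR replicate 2 and 0.0579 without FR replicate 3, and that of Ltb4r1 lay between 0.052 and 0.193 over all 6 omissions. Alox5, the lipoxygenase gene that starts leukotriene synthesis, had 5.09, 5.72 and 5.09 in FR, against 5.13, 4.93 and 4.89 in DMSO, and did not pass (log2 change 0.32, adjusted p = 0.157).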
